A study of Mus musculus with 1016 samples.

Results

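The order in which the genome was copied was compared between cells of the mouse inner cell mass (ICM) collected 96 to 100 h after injection of human chorionic gonadotropin (hCG) and morula cells collected at 90 to 96 h. All columns of deposited replication states with these labels and a replication score of 10 to 90% were taken. The replication score is the percentage of the called bins of a cell that had replicated, and so gives its progress through S phase. This gave 33 ICM cells of 71 labelled and 47 morula cells of 48 labelled, 80 of the 1016 labelled samples of the series. No deposited column of either group lay outside the limits, the nearest ones being an ICM cell at 89.3% and a morula cell at 87.5%.

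Each sample was 1 cell, measured by single-cell Repli-seq, in which the DNA of a single cell is amplified and sequenced and replicated regions give more reads than regions not yet copied. All embryos were untreated and came from superovulated F1 females of C57BL/6J and CBA mated with DBA/2J males, and were collected as zygotes and cultured to the stage of interest. ICM cells were those of dissociated blastocysts without the fluorescent microspheres that mark outer cells, and in the sources used here morula cells are not split into inner and outer cells. The labels tie no cell to an embryo, litter or collection, so each group counts as 1 sample, differences have no replicate check, and no test was made. Exact (Clopper-Pearson) 95% intervals of shares of cells cover counting error only, and reads per cell are not in the state tables, so the depth behind a state is unknown here. DNA states hold no expression, so no marker gene could check the labels.

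Early-replicating DNA is, in most mammalian cells, rich in genes and in G and C and lies in the nuclear interior, whereas late-replicating DNA is poor in genes and AT-rich and is often found at the nuclear lamina. The order is set by how likely replication origins of a region are to fire early in S phase. Morula cells compact and start to differ by position, and in the blastocyst the outer cells form trophectoderm while the inner cells, the ICM, give rise to epiblast and primitive endoderm.

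Replication timing (RT) of a 50-kb bin was taken from the share of cells that had copied it, so that 1 is earliest and 0 latest. To allow for the unequal progress of cells, this share was computed in 16 intervals of replication score, each 35 points wide and overlapping the next, and their mean was used. Differences are ICM minus morula, and a difference of 0.2 or more in size is called earlier or later. RT was compared in 46250 of 49264 bins, those called in at least 50% of the cells of each group. In the ICM, GC-rich and gene-rich DNA replicated later than in morula cells, and AT-rich, gene-poor DNA replicated earlier. With bins split by GC content into 10 groups of equal size, mean RT of the richest group was 0.557 in the ICM and 0.721 in morula cells, and in the poorest group it was 0.294 in the ICM and 0.169 in morula cells. Morula RT increased at each step from poor to rich, whereas ICM RT was highest in group 8, at 0.647, and lower in groups 9 and 10.

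**Figure D1:**
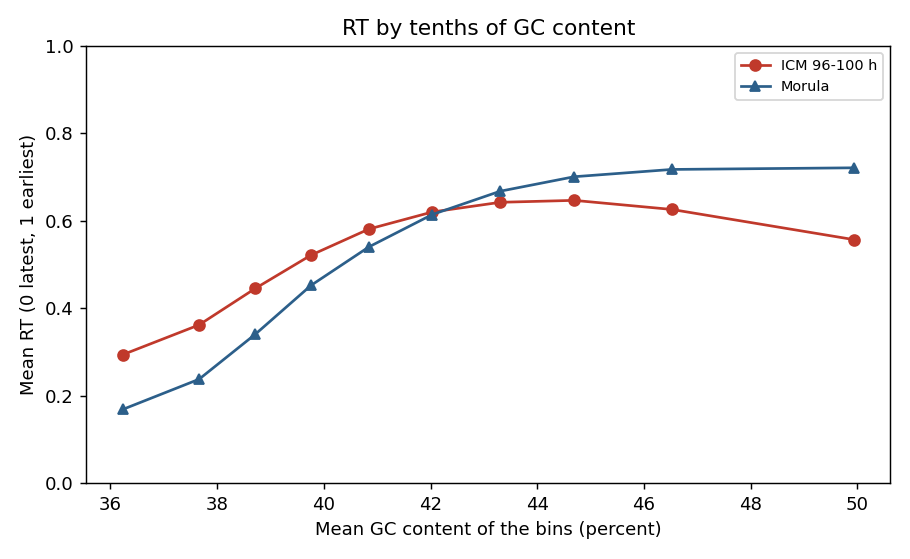
Mean RT (y axis, 0 latest to 1 earliest) of 50-kb bins in 10 groups of equal size by GC content (x axis, percent) for ICM cells of 96-100 h (circles) and morula cells (triangles). The lines cross near group 6, where RT was 0.620 in the ICM and 0.615 in morula cells, and the ICM line turns down in the GC-richest bins.

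Across bins the difference in RT had a Spearman's R of −0.603 with GC content, and RT itself had an R with GC content of 0.487 in the ICM and 0.703 in morula cells. The difference holds morula RT with a minus sign. A narrower spread of RT in the ICM would thus by itself give a negative R. The R with RT centred and scaled in each group was not computed. Bins are not independent replicates, and GC content can also affect amplification and read counts, whose part in the difference was not tested. The difference was also taken at similar RT of the 16-cell stage. Bins were split into 5 groups of equal size by RT at the 16-cell stage, and each of these into 3 groups by GC content. In the middle group of 16-cell RT, the bins richest in GC had a mean RT of 0.529 in the ICM and 0.645 in morula cells, and those poorest in GC had 0.578 in the ICM and 0.513 in morula cells. The GC-rich bins thus came after the GC-poor bins in the ICM and before them in morula cells, although 16-cell RT was 0.565 for the GC-rich and 0.540 for the GC-poor bins. The gap was not the same at all levels of 16-cell RT. In the group latest at the 16-cell stage the mean difference was 0.13 in GC-poor, 0.14 in middle and 0.13 in GC-rich bins, and in the earliest group it was −0.06 in GC-poor, −0.08 in middle and −0.11 in GC-rich bins.

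RT values were closer together in the ICM. The standard deviation of RT over bins was 0.191 in the ICM and 0.262 in morula cells, with medians of 0.557 in the ICM and 0.566 in morula cells. RT below 0.2 was found in 6.20% of bins in the ICM and in 18.1% in morula cells, and RT above 0.8 in 5.38% in the ICM and in 15.1% in morula cells. With early RT set at 0.5 or more, 10.53% of bins were early in the ICM but late in morula cells, and 7.22% were late in the ICM but early in morula cells. The remaining 49.6% were early and 32.7% late in both groups. Across bins, Spearman's R between the ICM and morula cells was 0.788.

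Single cells differed widely in how far they followed GC content. The GC contrast of a cell is the percentage of its GC-rich bins that had replicated minus that of its GC-poor bins, where bins were split into 4 groups of equal size and the richest lay above 44.7% GC and the poorest below 38.7%. The lowest, median and highest contrasts were −38.5, 26 and 77.1 points in ICM cells and −4.92, 62 and 83 points in morula cells. The contrast is small near the start and the end of S phase by its construction, so cells are best set side by side at similar scores. Between scores of 30 and 70%, the median was 24.5 points in 17 ICM cells and 73.6 points in 24 morula cells.

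The groups overlapped over most of the range. A contrast above 50 points was found in 8 of 33 ICM cells and 29 of 47 morula cells, and a contrast below 0, with more of the GC-poor than of the GC-rich bins copied, in 5 ICM cells and 3 morula cells. At scores of 50 to 70%, 5 of 7 ICM cells lay above 50 points, against 13 of 15 morula cells. At scores of 30 to 50%, 2 of 10 ICM cells lay above 50 points, against 5 of 9 morula cells. At scores of 70 to 90%, 1 of 14 ICM cells lay above 50 points, against 10 of 16 morula cells. A contrast below 0 was found in that band in 2 ICM cells and 0 morula cells. ICM cells thus held both cells at the level of most morula cells and cells with little or opposite contrast.

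**Figure D2:**
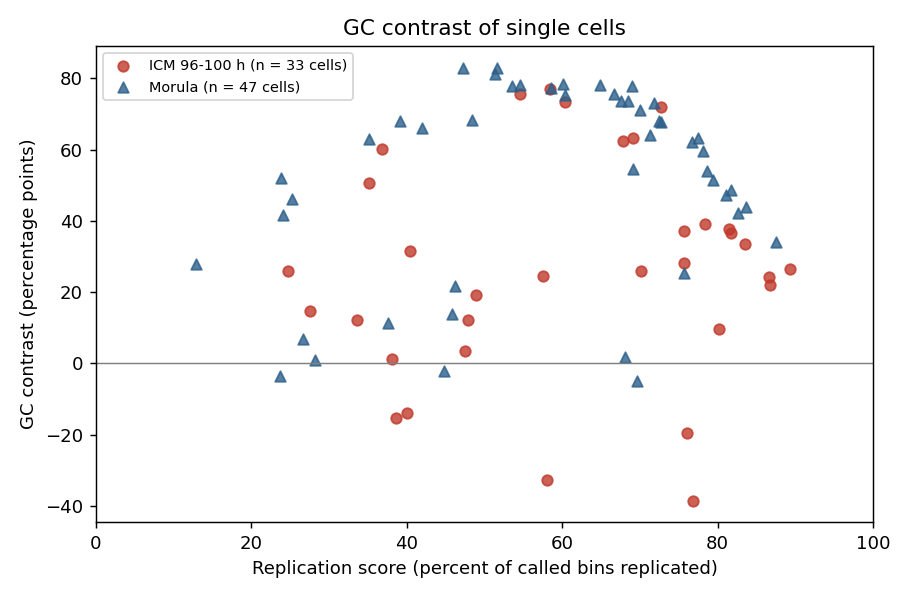
GC contrast (y axis, percentage points) of each cell against its replication score (x axis, percent), for 33 ICM cells of 96-100 h (circles) and 47 morula cells (triangles). Most morula cells lie on an arc that peaks at 83 points, while ICM cells lie on that arc and below it down to −38.5 points.

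The same spread appeared when the states of each cell were correlated with the RT of a group, its own cell left out. Pearson's r with morula RT had a lowest, median and highest value of −0.128, 0.396 and 0.790 in ICM cells and 0.0609, 0.660 and 0.793 in morula cells. Of the ICM cells, 9 had an r above 0.5 with morula RT and 5 had one below 0, against 34 and 0 of the 47 morula cells. By the approximate rule of 3 divided by the number of cells, 0 allows a share of up to 6.38%. Among RT of the ICM at 96 to 100 h, the morula, the later ICM (cells collected after 100 h) and the 16-cell stage, an ICM cell correlated best with its own group in 14 of 33 cells, with morula cells in 10, with the later ICM in 8 and with the 16-cell stage in 1. A morula cell correlated best with its own group in 38 of 47 cells. Of 40 cells of the 16-cell stage, however, 25 also correlated best with morula RT and only 5 with their own group. A best correlation with morula RT thus does not by itself mark a cell as morula-like. The median number of changes between the replicated and the unreplicated state along the chromosomes was 907 per ICM cell and 927 per morula cell.

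Some cells stood apart by chromosome. In 2 morula cells at least 1 whole chromosome was in a single state, 1 of them (replicate 5) with 5 such chromosomes, against 0 of 33 ICM cells. By the same approximate rule, 0 of 33 allows a share of up to 9.09%. A chromosome lay more than 25 points from the score of its own cell in 5 ICM cells and 3 morula cells. Values without these 2 morula cells or without such chromosomes are given below only where they move a result. The cells spread over S phase with 2, 10, 7 and 14 ICM cells at scores of 10 to 30, 30 to 50, 50 to 70 and 70 to 90%, against 7, 9, 15 and 16 morula cells, and the intervals behind RT held 3 to 20 ICM cells and 7 to 29 morula cells. No pair of cells of a group had the same state in more than 86.4% of shared bins in the ICM or 88.4% in morula cells.

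Of the 46250 bins, 4306 (9.31%) were later and 5214 (11.3%) earlier in the ICM. In windows of 2 Mb, 61 of 1170 (5.21%) were later in the ICM and 55 (4.7%) earlier. With RT of each group centred and scaled by its own spread, 49 windows were later and 27 earlier, and with the raw share of cells in place of RT, 44 were later and 68 earlier. Windows later in the ICM had a median GC content of 48% and 18 gene starts per Mb, windows earlier in the ICM had 38.3% and 1.5 per Mb, and all windows had 41.7% and 6 per Mb. Median RT of the later windows was 0.496 in the ICM and 0.730 in morula cells, and that of the earlier windows was 0.466 in the ICM and 0.234 in morula cells. Both sets thus had a median RT near 0.5 in the ICM, whereas in morula cells their medians lay on opposite sides of 0.5. RT is an average over cells, so a value near 0.5 need not mean copying in the middle of S phase. The windows were also chosen by the difference itself.

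The window that was most delayed lay on chromosome 4 (GRCm38, chr4:118000001-120000000) and holds 46 protein-coding genes, among them Cdc20, an activator of the anaphase-promoting complex, Slc2a1, a glucose transporter, and the histone demethylase gene Kdm4a. Its RT was 0.410 in the ICM and 0.728 in morula cells, a difference of −0.32. Most of the window had replicated in 14 of 33 ICM cells (42.4%, 95% interval 25.5 to 60.8) and in 37 of 47 morula cells (78.7%, 64.3 to 89.3). At scores of 50 to 70%, that was the case in 3 of 7 ICM cells and 14 of 15 morula cells. With the later ICM cells in place of these, the difference was −0.20.

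The other 5 delayed windows were of the same kind, except 1. The window chr5:114000001-116000000, with Ung, which removes uracil from DNA, and the ribosomal protein gene Rplp0, had replicated in 16 of 33 ICM cells and 41 of 47 morula cells, with RT of 0.482 in the ICM and 0.794 in morula cells. The window chr15:78000001-80000000, with Sox10, a neural crest transcription factor, had replicated in 14 of 33 ICM cells and 38 of 47 morula cells. The window chr4:138000001-140000000, with the mitochondrial kinase gene Pink1 and the muscle stem cell factor gene Pax7, had done so in 15 of 33 ICM cells and 32 of 47 morula cells. These windows held 36 to 62 protein-coding genes at 49.5 to 50.8% GC.

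The window chr8:120000001-122000000 holds Gins2, a subunit of the replicative helicase, Cox4i1, a subunit of cytochrome c oxidase, and the forkhead factor genes Foxf1 and Foxc2. It had replicated in 12 of 33 ICM cells and 34 of 47 morula cells, and even at scores of 70 to 90% in 5 of 14 ICM cells, against 14 of 16 morula cells. The exception was chr14:18000001-20000000, with the thyroid hormone receptor gene Thrb and the ribosomal protein gene Rpl15, which had 13 protein-coding genes at 42.1% GC and 30 measured bins. It had replicated in 15 of 33 ICM cells and 35 of 47 morula cells.

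**Figure D3:**
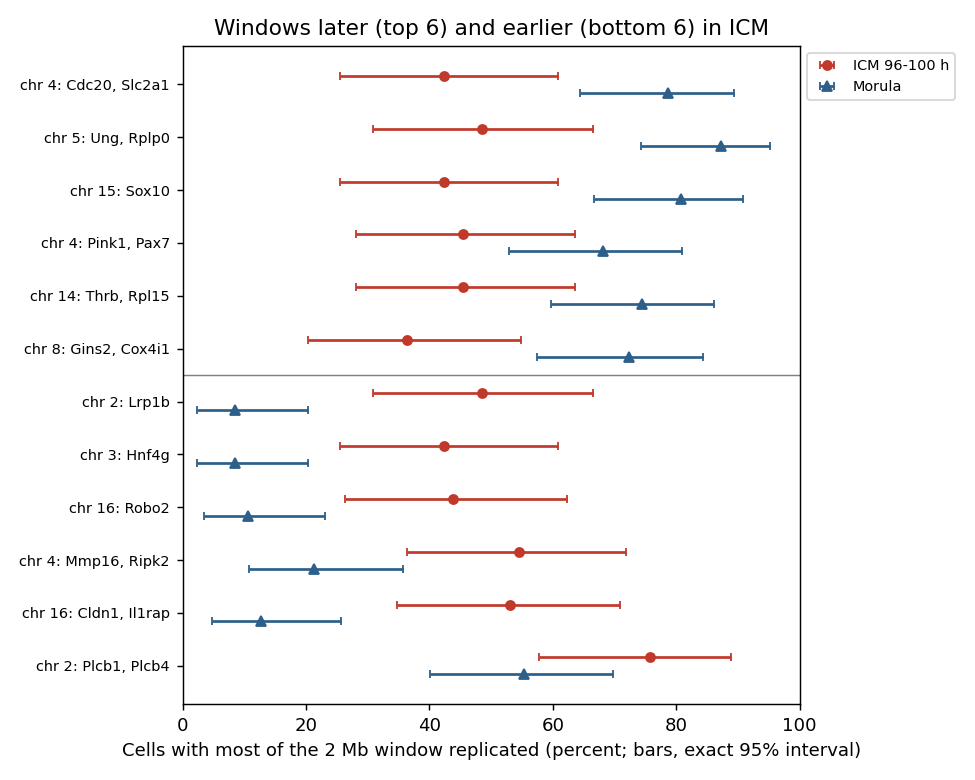
Percentage of cells (x axis) in which most of a 2 Mb window had replicated, with exact 95% intervals, for ICM cells of 96-100 h (circles) above morula cells (triangles). The 6 windows with the most negative difference in RT stand above the line and the 6 with the most positive below it, each named by chromosome and genes, and the intervals of the groups overlap in the Pink1, Thrb and Plcb1 windows.

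The window that was most advanced, chr2:40000001-42000000, is overlapped by Lrp1b, a very long gene of a lipoprotein-receptor relative, and holds no gene start. Its RT was 0.409 in the ICM and 0.066 in morula cells, a difference of 0.34. It had replicated in 16 of 33 ICM cells (48.5%, 95% interval 30.8 to 66.5) and in 4 of 47 morula cells (8.51%, 2.37 to 20.4). Below a score of 70%, 7 of 19 ICM cells had copied it, against 0 of 31 morula cells (exact 95% interval 0 to 11.2%). The window was picked for its difference in these same cells, so these counts are no further support for it. The 4 morula cells that had copied it all had scores of 70 to 90%, whereas both ICM cells below 30% had it.

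Further advanced windows had a similar make-up. The window chr3:2000001-4000000, the first of its chromosome with measured bins (20 of them) and overlapped by Hnf4g, had replicated in 14 of 33 ICM cells and 4 of 47 morula cells. The window chr16:74000001-76000000, which holds the start of the axon guidance receptor gene Robo2, had done so in 14 of 32 ICM cells and 5 of 47 morula cells. The window chr4:16000001-18000000, with the membrane metalloproteinase gene Mmp16 and the kinase gene Ripk2, had done so in 18 of 33 ICM cells and 10 of 47 morula cells. The window chr16:26000001-28000000, with the claudin genes Cldn1 and Cldn16, had done so in 17 of 32 ICM cells and 6 of 47 morula cells. The last, chr2:134000001-136000000, holds the phospholipase C genes Plcb1 and Plcb4 and was already of middle RT in morula cells, at 0.444, against 0.715 in the ICM. Below a score of 70%, the Hnf4g window had been copied in 7 of 19 ICM cells and 1 of 31 morula cells. Counts were 4 of 18 and 2 of 31 for the Robo2 window and 8 of 19 and 3 of 31 for the Mmp16 window. For the Cldn1 window they were 6 of 18 and 1 of 31, and for the Plcb1 window 12 of 19 and 12 of 31. All 6 advanced windows had 36.7 to 40.1% GC and 1 to 9 protein-coding genes.

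As an example of the composition of a gene's own start and of its surroundings, the promoters of a delayed and an advanced gene were compared. These genes were picked for their opposite changes, so alone they cannot show which composition went with the change. Cdt1 encodes the loading factor of the replicative helicase, and Robo2 is the axon guidance receptor gene of an advanced window. The RefSeq sequences (GRCm38.p6), 250 bases before to 50 after the gene start, are shown with each CG dinucleotide in capitals. That of Cdt1 lies on the plus strand at chr8:122567765-122568064 and that of Robo2 on the minus strand at chr16:74411776-74412075.
Cdt1: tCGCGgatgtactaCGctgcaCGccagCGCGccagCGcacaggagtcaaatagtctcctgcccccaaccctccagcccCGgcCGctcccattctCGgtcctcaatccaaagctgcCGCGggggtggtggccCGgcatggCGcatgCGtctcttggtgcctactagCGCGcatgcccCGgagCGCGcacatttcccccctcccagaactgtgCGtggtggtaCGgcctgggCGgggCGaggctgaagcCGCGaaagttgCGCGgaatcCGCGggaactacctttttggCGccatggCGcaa
Robo2: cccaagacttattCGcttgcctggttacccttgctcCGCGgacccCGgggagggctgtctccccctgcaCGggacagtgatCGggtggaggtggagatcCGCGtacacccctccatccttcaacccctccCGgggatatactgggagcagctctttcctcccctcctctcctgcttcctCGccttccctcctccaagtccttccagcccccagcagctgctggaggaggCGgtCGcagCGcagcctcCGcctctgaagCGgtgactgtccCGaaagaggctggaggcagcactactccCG

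Both promoters were rich in GC, with 66.7% and 32 CG dinucleotides in Cdt1 and 65% and 17 in Robo2. The 50-kb bins around them were not alike, with 52.5% GC at Cdt1 and 37.7% at Robo2. RT of Cdt1 was 0.386 in the ICM and 0.752 in morula cells, and its bins had replicated in 13 of 33 ICM cells and 38 of 47 morula cells. RT of Robo2, over the whole gene, was 0.475 in the ICM and 0.198 in morula cells, and most of it had replicated in 17 of 32 ICM cells and 12 of 47 morula cells. Of 15059 genes with a matched promoter, 95.6% had at least 1 CG dinucleotide in this window of 300 bases, 47.6% had 17 or more and 13.5% had 32 or more. Across these genes, Spearman's R of the difference in RT was −0.229 with GC content of the promoter and −0.543 with that of the bin around the start. Genes are not independent replicates, and neighbouring genes share bins. Here too the difference holds morula RT with a minus sign, so a narrower spread in the ICM would by itself lower these R.

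Of 19843 measured protein-coding genes, 14321 had lower and 5516 higher RT in the ICM. Their median difference was −0.09, with 4121 (20.8%) called later and 559 (2.82%) called earlier. Gene lists were read against this. Counts of calls in a list often changed with a single cell left out, to 3 to 7 later for pluripotency (3 without ICM replicate 64 or 79), 3 to 7 for the Hippo pathway, 2 to 6 for FGF and ERK signalling and 7 to 11 for ribosome biogenesis (7 without ICM replicate 79). The RT of a gene is the mean over all bins that it touches, so that a gene value is one of its region.

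**Figure D4:**
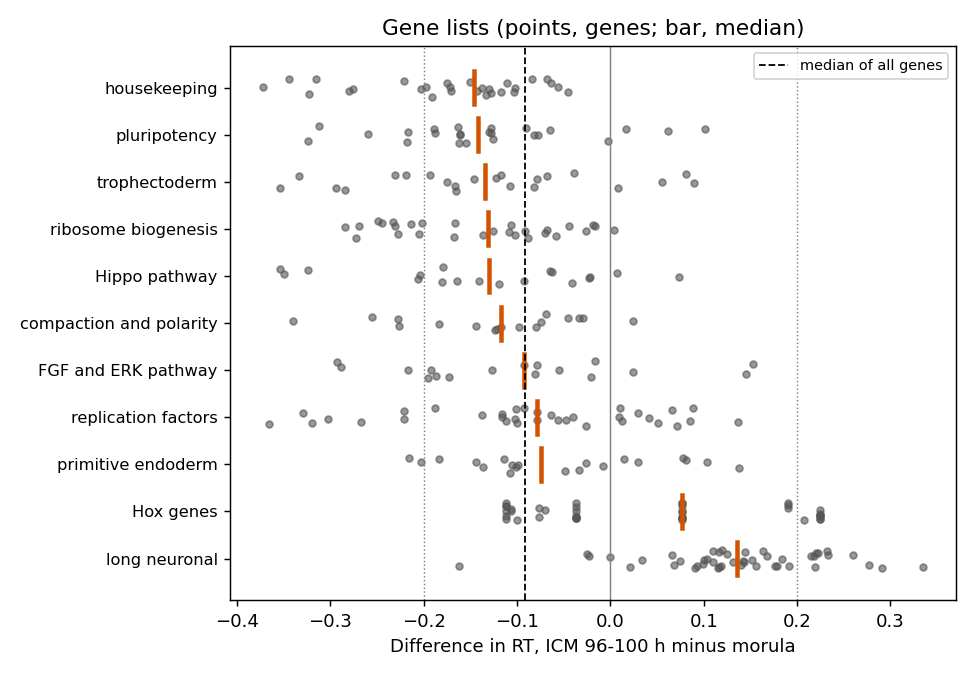
Difference in RT (x axis, ICM of 96-100 h minus morula) of each gene (points) in 11 gene lists, with the median of each list (bar), the median of all protein-coding genes (dashed line) and the call at 0.2 in either direction (dotted lines). Of 46 long neuronal genes, 42 lie above 0, whereas Hox genes lie on both sides, 20 above and 19 below 0.

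Pluripotency genes, which keep epiblast and embryonic stem cells undifferentiated, had a median RT of 0.663 in the ICM and 0.789 in morula cells. Of 24 genes, 5 were called later (Utf1, Tdgf1, Dppa4, Esrrb and Fgf4) and 0 earlier, and the median difference was −0.14. The share called later was like that of all protein-coding genes, 20.8%. Pou5f1, which encodes the factor OCT4, had RT of 0.478 in the ICM and 0.642 in morula cells and had replicated in 17 of 33 ICM cells and 31 of 47 morula cells. Nanog had 0.707 in the ICM and 0.789 in morula cells, and Klf4 had 0.731 in the ICM and 0.808 in morula cells, neither past the call. Sox2 stood on the other side, with RT of 0.666 in the ICM and 0.564 in morula cells, and had replicated in 26 of 33 ICM cells and 31 of 47 morula cells. Utf1, a chromatin factor of stem cells, was the lowest of the list, with 0.462 in the ICM and 0.786 in morula cells.

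Trophectoderm genes, which belong to the outer lineage of the blastocyst, had a median difference of −0.13, with 6 of 22 called later and 0 earlier. Of all protein-coding genes, 20.8% were called later and 2.82% earlier. With a single cell left out, 5 to 8 of the 22 were called later. Tead4, the transcription factor that works with YAP1 at the top of the trophectoderm programme, had RT of 0.431 in the ICM and 0.785 in morula cells and had replicated in 18 of 33 ICM cells and 40 of 47 morula cells. Cdx2, a factor that acts after it, had nearly the same RT in both groups, 0.826 in the ICM and 0.818 in morula cells. Gata3, another trophectoderm factor, had 0.612 in the ICM and 0.759 in morula cells, and the keratin gene Krt18 had 0.669 in the ICM and 0.845 in morula cells. Ets2 was the highest, with 0.666 in the ICM and 0.576 in morula cells.

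Primitive endoderm genes, of the inner lineage that faces the blastocyst cavity, had a median difference of −0.07. Against 20.8% of all protein-coding genes, 2 of the 20 were called later, and 0 were called earlier. Both were collagen genes of the basement membrane that share a start region, Col4a1 with RT of 0.503 in the ICM and 0.706 in morula cells and Col4a2 with 0.524 in the ICM and 0.740 in morula cells. Gata6, an early factor of the lineage, had 0.688 in the ICM and 0.832 in morula cells, and Gata4 had 0.718 in the ICM and 0.826 in morula cells. Sox17, a later factor, had 0.595 in the ICM and 0.514 in morula cells, and Foxa2 was highest of the list, with 0.394 in the ICM and 0.256 in morula cells. None of these 4 was past the call. Without ICM replicate 80 the median of the list was −0.05, and with RT centred and scaled in each group it was 0.0028. Without a single cell, 0 to 3 of the 20 genes were called later, and the call of Col4a1 ended without any 1 of 25 cells and that of Col4a2 without any 1 of 10.

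The Hippo pathway, which keeps YAP1 out of the nucleus in inner cells, had a median difference of −0.13, with 5 of 18 genes called later and 0 earlier. Besides Tead4 and Tead3 these were Vgll4, an antagonist of TEAD factors, with RT of 0.479 in the ICM and 0.829 in morula cells, the kinase adaptor gene Sav1 with 0.578 in the ICM and 0.902 in morula cells, and Amotl2 with 0.508 in the ICM and 0.714 in morula cells. Yap1 itself had 0.662 in the ICM and 0.655 in morula cells, and the kinase gene Stk3 was highest, with 0.742 in the ICM and 0.668 in morula cells. Genes of FGF and ERK signalling, by which FGF4 directs inner cells towards primitive endoderm, had a median of −0.09, with 3 of 17 later (Hras, Grb2 and Fgf4) and 0 earlier. All protein-coding genes had the same median, −0.09, and 20.8% of them were later, so this list was like all genes. The ligand gene Fgf4 had RT of 0.599 in the ICM and 0.816 in morula cells, and Hras had 0.589 in the ICM and 0.882 in morula cells. The receptor gene Fgfr2, whose annotated span here covers 2961 kb, had 0.679 in the ICM and 0.757 in morula cells, and Spry2, a feedback inhibitor, had 0.690 in the ICM and 0.537 in morula cells. The median of this list was −0.06 without ICM replicate 68 and −0.16 with cells matched on score.

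Among 17 measured genes of compaction and polarity, by which morula cells flatten and form an apical side, 4 were later (Pard6b, Prkcz, Cgn and Cldn4) and 0 earlier, with a median difference of −0.12. The share called later was near that of all protein-coding genes, 20.8%. Pard6b, of the apical polarity complex, had RT of 0.533 in the ICM and 0.873 in morula cells and had replicated in 21 of 33 ICM cells and 43 of 47 morula cells. Cdh1, which encodes the adhesion protein E-cadherin, had 0.758 in the ICM and 0.837 in morula cells, and Cldn6 was highest, with 0.418 in the ICM and 0.394 in morula cells.

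Genes that all cells use lay lower as well. Of all protein-coding genes, 14321 of 19843 had lower RT in the ICM and 20.8% were called later. All 28 housekeeping genes had lower RT in the ICM, with a median difference of −0.15 and 8 called later. With a single cell left out, 7 to 11 housekeeping genes were called later. Cox4i1 was lowest, with RT of 0.261 in the ICM and 0.633 in morula cells, and had replicated in 11 of 33 ICM cells and 32 of 47 morula cells. Actb, which encodes a cytoskeletal actin, moved least, with 0.695 in the ICM and 0.740 in morula cells. Of 28 measured ribosome biogenesis genes, 27 had lower RT in the ICM and 11 were called later, with a median of −0.13. They ran from the nucleolar methyltransferase gene Fbl, with 0.480 in the ICM and 0.765 in morula cells, to Gnl3, with 0.736 in the ICM and 0.732 in morula cells.

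Replication factors, which act on origins and forks, lay close to all protein-coding genes, of which 20.8% were later at a median of −0.09. Of 34 genes, 7 were called later and 0 earlier, the median difference was −0.08, and 11 had higher RT in the ICM. The median was −0.05 without ICM replicate 31 and −0.02 with RT centred and scaled in each group. The 7 were Cdt1, the polymerase genes Pold1 and Pole, Gins2, the helicase genes Mcm2 and Mcm7, and Rpa2, which encodes a subunit of the single-strand binding complex. Mcm2 had RT of 0.459 in the ICM and 0.762 in morula cells. Orc4, of the origin recognition complex, was highest, with 0.827 in the ICM and 0.690 in morula cells.

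Long neuronal genes showed the opposite change. They encode mostly adhesion and synaptic proteins, span long stretches of AT-rich DNA and are known for late replication. Of 46 genes, 42 had higher RT in the ICM, 11 were called earlier and 0 later, and median RT was 0.441 in the ICM and 0.247 in morula cells. Of all protein-coding genes, 2.82% were called earlier, and of all bins 11.3%. Calls in the list were 9 to 14 with a single cell left out and 5 with RT centred and scaled in each group. The median difference of the list was 0.14, and the mean difference of the GC-poorest of the 10 groups of bins was 0.13. Lrp1b had RT of 0.398 in the ICM and 0.063 in morula cells, and most of it had replicated in 15 of 33 ICM cells and 5 of 47 morula cells. Robo1, a neighbour of Robo2 on chromosome 16, had 0.596 in the ICM and 0.305 in morula cells. Dpp6 was the lowest, with 0.418 in the ICM and 0.580 in morula cells.

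Hox genes, which set position along the body axis, fell apart by cluster. The 11 genes of the Hoxa cluster (chr6:52155590-52260880) had a median RT of 0.814 in the ICM and 0.590 in morula cells, and those of the Hoxd cluster on chromosome 2 had 0.671 in the ICM and 0.595 in morula cells. The Hoxc cluster on chromosome 15 had 0.753 in the ICM and 0.866 in morula cells, and the Hoxb cluster on chromosome 11 had 0.778 in the ICM and 0.815 in morula cells. Hoxa9 had replicated in 28 of 33 ICM cells and 33 of 47 morula cells. The 39 genes share bins and hold only 10 distinct values, so that the 8 called earlier, all of Hoxa, are 1 region. With the raw share of cells, and with cells matched on score, 0 Hox genes were called in either direction. The median of all 39, 0.08, is the value that the Hoxd genes share, and it was 0.05 without ICM replicate 31, 0.12 without ICM replicate 37, 0.03 with the raw share and 0 with matched cells. With the later ICM cells, the difference of Hoxa9 was 0.06.

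Receptor gene families of the nose, which are silent in the embryo and lie in large AT-rich clusters, held genes called in both directions. Calls in both directions were also found among all protein-coding genes, 20.8% later and 2.82% earlier. Of 1111 olfactory receptor genes, which share bins and hold 545 distinct values, 62 were called later and 33 earlier. The share called earlier was thus near that of all genes, and the share called later was lower. Median RT of the olfactory receptor genes was 0.310 in the ICM and 0.242 in morula cells. Olfr750 (chromosome 14) had RT of 0.283 in the ICM and 0.682 in morula cells, and Olfr218 (chromosome 1) had 0.397 in the ICM and 0.079 in morula cells. Of 206 vomeronasal receptor genes, with 164 distinct values, 11 were later and 17 earlier, with medians of 0.317 in the ICM and 0.294 in morula cells. Vmn1r85 and Vmn1r75 marked their ends, the one with RT of 0.413 in the ICM and 0.744 in morula cells, the other with 0.437 in the ICM and 0.169 in morula cells. With RT centred and scaled in each group, the median differences of both families turned, to −0.06 for olfactory and −0.09 for vomeronasal receptor genes. The olfactory receptor genes called earlier were 10 without ICM replicate 38, 18 without ICM replicate 64 and 19 without ICM replicate 68. With single cells left out, the median difference of vomeronasal receptor genes ran from −0.0074 to 0.014.

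Mean RT by chromosome was higher in the ICM on 14 of 19 chromosomes, most on chromosome 3, with 0.508 in the ICM and 0.447 in morula cells. Chromosome 16 had 0.543 in the ICM and 0.488 in morula cells, and chromosome 13 had 0.610 in the ICM and 0.555 in morula cells. Chromosomes 6 and 18 followed, with differences of 0.04 each. The lowest difference was that of chromosome 11, with 0.582 in the ICM and 0.621 in morula cells, and chromosome 5 was next, with 0.506 in the ICM and 0.529 in morula cells. Chromosome 3 had a mean GC content of 40.5% and 6.27 gene starts per Mb over its measured bins, and chromosome 11 had 43.8% and 13.4 per Mb. On chromosome 3, 9 of 79 windows were earlier in the ICM and 1 later, and on chromosome 11, 0 of 59 were earlier and 6 later.

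**Figure D5:**
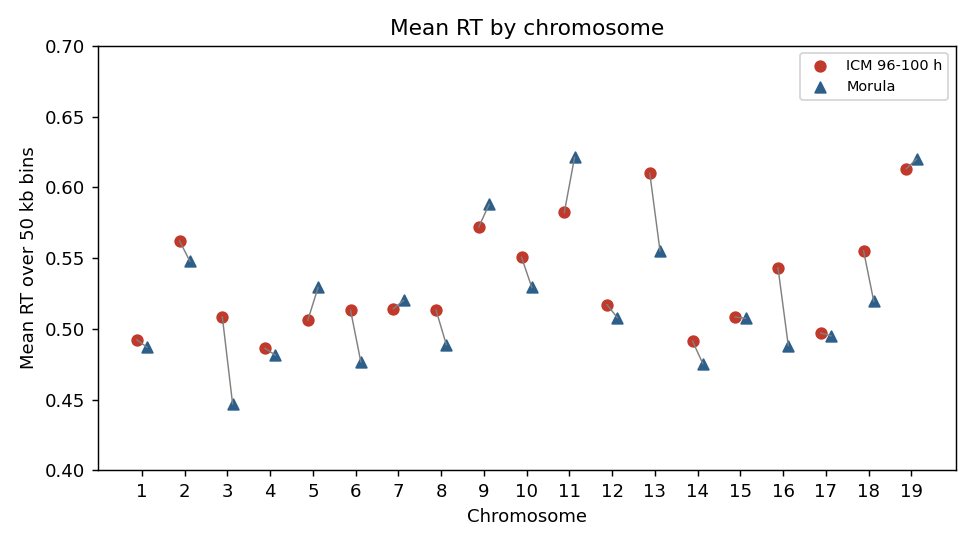
Mean RT over 50-kb bins (y axis) of each chromosome (x axis) in ICM cells of 96-100 h (circles) and morula cells (triangles), joined by a line. The largest gaps are those of chromosomes 3, 13 and 16, where the ICM lies above, and chromosome 11, where it lies below.

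Single cells spread around their chromosome means. The percentage of chromosome 3 that had replicated, minus the score of the same cell, ran from −18.5 to 32.6 points with a median of −2.90 in ICM cells, and from −14.4 to 7.85 points with a median of −8.64 in morula cells. It lay above the score in 9 of 33 ICM cells and 5 of 47 morula cells. In 2 ICM cells chromosome 3 lay more than 25 points from the score, and with such chromosomes left out the difference was 0.04 rather than 0.06. On chromosome 11 the deviation ran from −23.3 to 22.1 points with a median of 5.93 in ICM cells, and from −16.7 to 25.6 points with a median of 9.90 in morula cells. On both chromosomes the groups overlapped. The sign of the difference was the same under all settings tried for chromosomes 3, 5, 6, 11, 13, 16 and 18, and it changed under at least 1 setting for the other 12.

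The stages on either side give the course of the same windows. Those later in the ICM of 96 to 100 h had median RT of 0.620 at the 16-cell stage, 0.730 in morula cells, 0.496 in the ICM of 96 to 100 h and 0.469 in the later ICM. Those earlier had 0.325 at the 16-cell stage, 0.234 in morula cells, 0.466 in the ICM of 96 to 100 h and 0.448 in the later ICM. The windows were chosen on the middle values of each sequence, so morula cells lie at one extreme by that choice. Over all bins, Spearman's R of the ICM of 96 to 100 h was 0.805 against 16-cell RT and 0.769 against later ICM RT, and that of morula cells was 0.910 against 16-cell RT and 0.693 against later ICM RT. The standard deviation of RT over bins was 0.222 at the 16-cell stage, 0.262 in morula cells, 0.191 in the ICM of 96 to 100 h and 0.154 in the later ICM. At least 1 whole chromosome was in a single state in 3 of 37 later ICM cells and 2 of 40 cells of the 16-cell stage. In later ICM replicate 36 and 16-cell replicate 15 this held for all 19 chromosomes. These cells were kept in the RT of their groups.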

How the data were processed

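Single-cell Repli-seq tables of morula, ICM and 16-cell embryos were used. The authors deposited binary states, which are other than counts and set each of 49264 bins of 50 kb in a cell to replicated, not replicated or missing. The bins cover the 19 autosomes of the GRCm38 build. By the submitters' processing notes and the methods, reads were aligned with Bowtie2 2.3.5, filtered with SAMtools 1.9 and counted with bedtools 2.29.0. Each bin was divided by its mean over the cells of a stage, without normalization to G1 or G2 cells, then smoothed, segmented and split into 2 states. Morula and ICM tables were processed apart, and the ICM table also holds cells collected after 100 h, so that part of a difference between tables may come from scaling within a stage, which was not tested.

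RT, calls and windows are as given in the report. Bins needed calls in 50% of the cells of each group, and 2 Mb windows needed 20 of 40 bins. Genes came from the GENCODE M21 annotation of GRCm38, and Myh9, Dkc1 and Noc2l had no value. Named windows are the 6 highest and 6 lowest, at most 1 per 10 Mb of a chromosome, and named genes are the highest and lowest of each list, with Pou5f1, Nanog, Sox2, Klf4, Cdx2, Gata3, Tead4, Krt18, Gata6, Sox17, Gata4, Fgf4, Fgfr2, Cdh1 and Yap1. Others were named after their values were seen. The cells compared and the lists were chosen with earlier results of these data known. Alternatives were the raw share of cells, scores of 20 to 80%, every column, cells passing the quality control of the study, cells matched on score within 5 points, bins called in 90% of cells, calls at 0.1 and 0.3, shifted and 1 Mb windows, RT centred and scaled in each group, deviating chromosomes left out, and each cell left out. The steps were tested on simulated data. Python 3.11.15, NumPy 2.4.6, pandas 2.3.3, SciPy 1.17.1 and Matplotlib 3.10.9 were used.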

Additional observations from a re-analysis of the deposited data

How the results depend on the processing

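No paired analysis was possible because the replicate numbers of the labels only name cells and no result came from a test. All 12 named windows kept their direction in 132 values under the alternatives. They were chosen as extremes of these same data, and most alternatives reuse the same cells. Their direction could thus hardly change, and this is no support for them. Windows later and earlier in the ICM, 61 and 55 at the call of 0.2, were 216 and 307 at 0.1, 5 and 2 at 0.3, and 160 and 179 in windows of 1 Mb. Bins later and earlier were 11495 and 14332 at 0.1 and 862 and 1034 at 0.3. Cells matched on score (31 pairs, raw share) gave 95 later windows. RT centred and scaled in each group gave 27 earlier windows, 3262 earlier bins and 9 chromosomes with higher mean RT in the ICM instead of 14.

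ICM cells collected after 100 h in place of those of 96 to 100 h, an alternative chosen after seeing the data, gave 149 later and 101 earlier windows, 8220 later bins and 9 chromosomes with higher mean RT. Leaving out each cell in turn gave 48 to 78 later and 48 to 73 earlier windows, 3748 to 5077 later and 4652 to 6102 earlier bins, and 12 to 15 chromosomes. The standard deviation of RT over bins, ICM over morula, was 0.713 to 0.750, and the difference in mean variability score, which is 1 at RT of 0.5 and 0 at RT of 0 or 1, was 0.125 to 0.146. Without the 2 morula cells with a whole chromosome in 1 state, also chosen after seeing the data, 65 windows were later and 61 earlier. The sign changed, or the value was 0, under at least 1 alternative for 4 of 13 gene lists and 9 of the named genes. With RT centred and scaled, medians were −0.08 for the Hippo pathway, −0.07 for compaction and polarity, −0.08 for ribosome biogenesis and 0.08 for long neuronal genes, of which 5 were then called earlier. Median differences of primitive endoderm genes turned to 0.0028 with RT centred and scaled, and Cdx2 and Yap1 lay near 0 on both sides. All 33 ICM and 42 of 47 morula cells passed the quality control of the study. The small number of cells at low scores, 2 in the ICM, limits RT there.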

Other observations

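The GC contrast of single cells was also taken at the neighbouring stages. Its lowest, median and highest values were −24.9, 60.5 and 80.9 points in 40 cells of the 16-cell stage and −29.4, 7.97 and 73.5 points in 37 ICM cells collected after 100 h. Without cells with a whole chromosome in 1 state, the median was 61.5 points in 38 cells of the 16-cell stage. It was then 12.7 points in 34 of the later ICM cells. A contrast below 0 was found in 7 of the 16-cell cells and 15 of the later ICM cells, and one above 50 points in 25 of the 16-cell cells and 3 of the later ICM cells.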
